A study of Homo sapiens with 4 samples.

Results

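The genes described here are 10 genes of the astrocyte lineage, SOX9, NFIA, GJA1, SLC1A3, SLC1A2, GLUL, GFAP, S100B, AQP4 and ALDH1L1, taken by symbol from a fixed list out of the 23228 gene symbols counted. RNA-seq was done on U87 MG cells, a long-established human glioblastoma line, grown in DMEM with 10% serum. The tested cells received siRNA against PELP1, a scaffold of nuclear receptors and chromatin regulators, and the cells they were set against received a control siRNA; both were transfected with oligofectamine and harvested 72 hours later. Each group had 2 libraries of total RNA, and both groups are the same single cell line, with no untransfected sample among those analysed. Sequences of the siRNAs were not given in the sources used here, and siRNA can touch transcripts other than its target.

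Astrocytes form late in brain development, when SOX9 in neural progenitors induces NFIA and the pair switches on glial genes such as GFAP, helped by cytokine signals through gp130, JAK kinases and STAT3, by BMP signals and by Notch. Mature astrocytes clear glutamate from the synapse through the transporters GLAST (SLC1A3) and GLT-1 (SLC1A2) and turn it into glutamine with glutamine synthetase (GLUL). They are coupled to each other by connexin 43 gap junctions (GJA1), carry the water channel AQP4 on their endfeet, and are recognised by the filament protein GFAP, the calcium-binding protein S100B and the folate enzyme ALDH1L1.

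All 10 symbols were found. Promoter windows of RefSeq (GRCh38.p14, from 250 bases before to 50 bases after an annotated start) were at hand for 6 members, GJA1, SLC1A3, GLUL, NFIA, AQP4 and ALDH1L1, in 14 windows. Those for SOX9, GFAP, S100B and SLC1A2 are not shown. Among 4 short words searched on both strands, TGAGTCA (bound by AP-1 factors) stood in 2 of the 14 windows, one of GJA1 and one of SLC1A3, against 4.95% of all 35116 windows in the table. TTGGC, a recognition core of the NFI factors, stood in 5 of 14 against 45.6% of all windows. TTCNNNGAA, the core bound by STAT factors, stood in 2 of 14 against 7.66%, and ACAAAG, a core of SOX sites, in 1 of 14 against 16.1%. The words were chosen after the windows had been read, and a match is a run of letters, not a shown binding site. The windows holding a word are printed for GJA1 and SLC1A3, which rose and had promoters in the table, and for AQP4, which had no reads; capitals mark the words on either strand, and no matches overlapped.
GJA1 (chr6:121435396-121435695, plus strand): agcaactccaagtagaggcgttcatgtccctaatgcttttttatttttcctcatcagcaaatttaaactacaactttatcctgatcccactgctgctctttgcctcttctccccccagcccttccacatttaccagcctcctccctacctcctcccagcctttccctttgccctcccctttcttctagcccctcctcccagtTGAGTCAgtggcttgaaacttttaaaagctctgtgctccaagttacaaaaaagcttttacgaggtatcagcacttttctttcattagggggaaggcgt
SLC1A3 (chr5:36596338-36596637, plus strand): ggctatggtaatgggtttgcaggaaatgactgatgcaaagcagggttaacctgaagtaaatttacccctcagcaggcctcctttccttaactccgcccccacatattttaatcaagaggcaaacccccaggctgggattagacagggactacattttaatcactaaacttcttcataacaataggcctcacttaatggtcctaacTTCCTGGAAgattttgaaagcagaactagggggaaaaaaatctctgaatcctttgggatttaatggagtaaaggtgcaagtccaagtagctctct
SLC1A3 (chr5:36606356-36606655, plus strand): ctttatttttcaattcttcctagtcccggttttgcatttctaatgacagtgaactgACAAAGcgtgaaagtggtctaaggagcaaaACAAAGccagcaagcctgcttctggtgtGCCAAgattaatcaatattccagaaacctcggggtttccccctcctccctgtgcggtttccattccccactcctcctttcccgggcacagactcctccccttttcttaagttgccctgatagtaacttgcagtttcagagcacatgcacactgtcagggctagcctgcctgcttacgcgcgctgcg
SLC1A3 (chr5:36606704-36607003, plus strand): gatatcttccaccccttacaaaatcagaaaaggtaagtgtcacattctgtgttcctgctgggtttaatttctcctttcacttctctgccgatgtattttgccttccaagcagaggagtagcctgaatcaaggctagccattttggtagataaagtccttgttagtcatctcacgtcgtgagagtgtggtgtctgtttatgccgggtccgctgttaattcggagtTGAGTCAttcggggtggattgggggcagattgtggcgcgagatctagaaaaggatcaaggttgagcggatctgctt
AQP4 (chr18:26862861-26863160, minus strand): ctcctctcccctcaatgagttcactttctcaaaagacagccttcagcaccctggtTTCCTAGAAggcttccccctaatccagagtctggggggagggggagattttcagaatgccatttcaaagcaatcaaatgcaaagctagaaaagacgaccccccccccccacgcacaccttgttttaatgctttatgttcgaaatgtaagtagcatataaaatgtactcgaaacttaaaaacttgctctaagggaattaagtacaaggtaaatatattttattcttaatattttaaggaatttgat
In GJA1 the word TGAGTCA begins 48 bases before the start, and in SLC1A3 26 bases before it. CG dinucleotides numbered 3 in the GJA1 window and 1 to 10 in those of SLC1A3, 2 to 4 in those of AQP4, and 25 and 29 in those of GLUL, against a median of 14 over all windows. They numbered 21 and 10 in the windows of ALDH1L1 and 10 to 41 in those of NFIA. Among the AQP4 windows, 2 share bases with each other. Windows with few CG thus belonged both to GJA1, which had many reads, and to AQP4, which had none.

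Reads assigned to genes numbered 18670162 to 22858988 per library. PELP1 itself stood at 15.2 and 17.7 CPM (read counts scaled to library size with TMM factors) with PELP1 siRNA and at 74.0 and 78.1 CPM with control siRNA (log2 fold change -2.21, SE 0.097, adjusted p = 8.32e-14, edgeR's quasi-likelihood test with Benjamini-Hochberg adjustment), so the targeted transcript was lower in both libraries labelled as silenced. The chi-square per gene between libraries of 1 group was 7.06 for PELP1 siRNA and 2.12 for control siRNA, so no pair differed by sampling noise alone. The labels say only that samples were run in duplicate, so p-values measure the spread between these libraries, which may be technical.

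U87 cells carried reads for 8 of the 10 astrocyte genes, at levels that differed by orders of magnitude. Per length (RPKM, CPM per kilobase of annotated exons), GJA1 was the most abundant at 84.2 ± 5.49 with PELP1 siRNA and 63.3 ± 1.63 with control siRNA (SD, n = 2 libraries each), higher than 96.6% of the 12617 tested genes with an annotated length. SOX9 followed at 9.26 ± 0.166 RPKM with PELP1 siRNA and 6.20 ± 0.124 RPKM with control siRNA. GLUL had 4.52 ± 0.249 RPKM with PELP1 siRNA and 4.52 ± 0.106 RPKM with control siRNA, and SLC1A3 had 3.21 ± 0.151 RPKM with PELP1 siRNA and 2.30 ± 0.112 RPKM with control siRNA. The median tested gene had 6.04 RPKM. GFAP, at 0.136 RPKM with PELP1 siRNA and 0.122 RPKM with control siRNA, was higher than only 2.70% of tested genes, and SLC1A2 and NFIA were higher than only 0.642% and 0.761%. With PELP1 siRNA, the libraries of SLC1A2 (0.0802 and 0.0532 RPKM) spanned those of NFIA (0.0589 and 0.0674 RPKM), so these neighbours did not differ beyond their spread there. With control siRNA, SLC1A2 (0.0588 and 0.0568 RPKM) lay below NFIA (0.0738 and 0.0759 RPKM) in both libraries. The other neighbours in the order, GJA1, SOX9, GLUL, SLC1A3 and GFAP, did not overlap within a group.

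The order depended on the length assigned to a gene, and the canonical length was added after the data had been seen. Exons of all annotated transcripts of NFIA add up to 59428 bases and those of SLC1A3 to 21227, while their canonical transcripts have 9229 and 3919 bases. Per canonical transcript, SLC1A3 stood at 17.4 ± 0.820 with PELP1 siRNA and 12.4 ± 0.604 RPKM with control siRNA, next after GJA1 at 92.7 RPKM with PELP1 siRNA and 69.7 RPKM with control siRNA. On that scale SOX9 (9.26 RPKM) lay above GLUL (7.56 RPKM) with PELP1 siRNA, and SOX9 (6.20 RPKM) lay below GLUL (7.57 RPKM) with control siRNA. NFIA then stood at 0.407 RPKM with PELP1 siRNA and 0.482 RPKM with control siRNA, above GFAP at 0.278 RPKM with PELP1 siRNA and 0.249 RPKM with control siRNA. SLC1A2 came last at 0.127 RPKM with PELP1 siRNA and 0.110 RPKM with control siRNA. Under both lengths GJA1, SOX9, SLC1A3 and GLUL were the more abundant among the members, and NFIA, GFAP and SLC1A2 were scarce. The median tested gene had 9.73 RPKM per canonical transcript. On that scale GJA1 was higher than 92.8% of tested genes, SLC1A3 than 60.9%, SOX9 than 44.2% and GLUL than 43.7%.

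**Figure D1:**
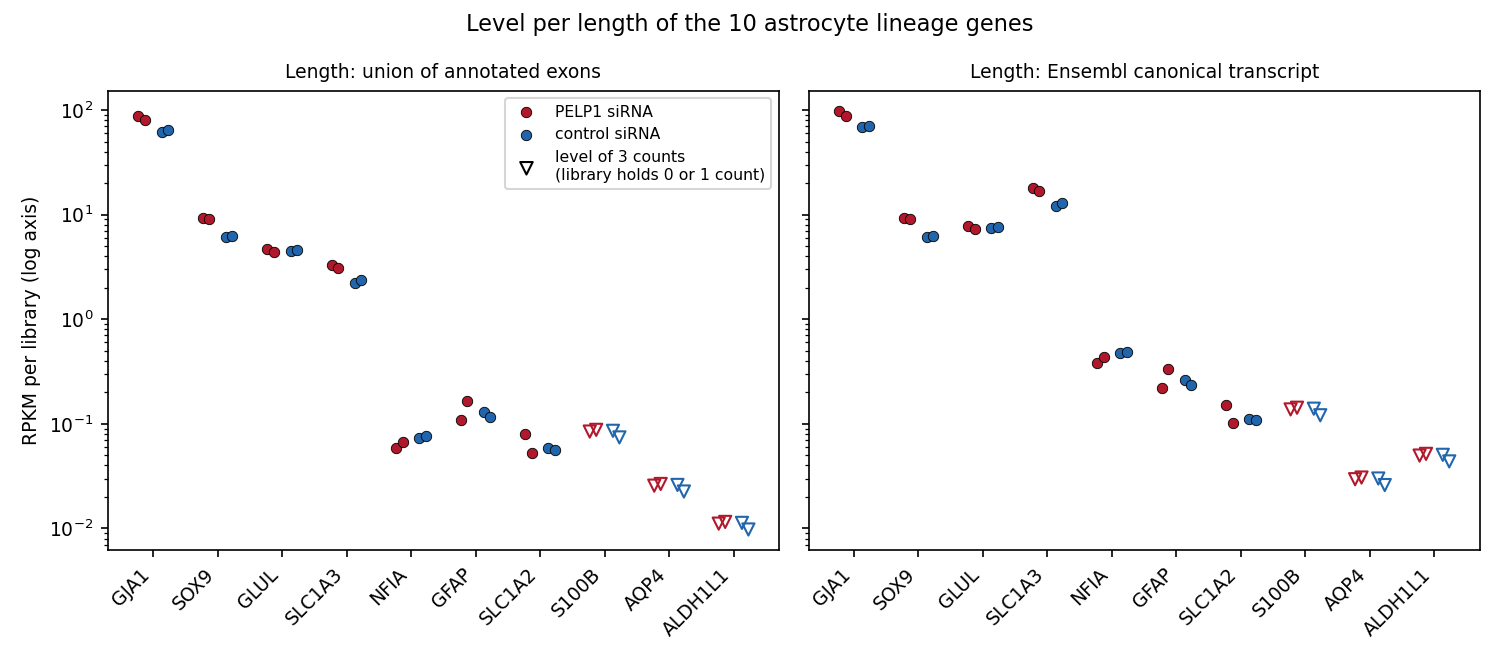
RPKM of each of the 10 genes in each library on a log axis, per union of annotated exons (left) and per Ensembl canonical transcript (right); filled points are libraries and open triangles mark the level that 3 counts would have where a library held 0 or 1 count. GJA1 lies above every other member in all 4 libraries, SLC1A3 moves above SOX9 and GLUL with the canonical length, and S100B, AQP4 and ALDH1L1 have no library above 1 count.

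Of the 10 members, 3 rose with PELP1 siRNA (SOX9, SLC1A3 and GJA1), none fell, 4 did not pass the threshold (GLUL, NFIA, GFAP and SLC1A2) and 3 had too few reads to be tested (S100B, AQP4 and ALDH1L1). The threshold was an adjusted p under 0.05 over all 13234 genes tested, of which 12.9% were called higher, 15.0% lower and 27.9% in either direction. All 3 rises were above the median log2 fold change of the genes called higher, 0.36: 20.1% of these rose more than SOX9, 30.0% more than SLC1A3 and 40.0% more than GJA1. By edgeR, DESeq2 and limma-voom alike 0 members were called lower, and 0 had a lower level at an unadjusted p under 0.05. Bulk RNA cannot tell a change in RNA per cell apart from a change in the share of cells that express a gene.

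SOX9, the transcription factor that specifies glial fate, had 726 and 682 reads with PELP1 siRNA and 466 and 554 with control siRNA. Scaled, this was 36.9 and 35.9 CPM with PELP1 siRNA, against 24.0 and 24.7 CPM with control siRNA. The PELP1 siRNA libraries were both higher and the groups were apart by far more than the gap between duplicates. The log2 fold change was 0.58 (SE 0.092, 95% interval 0.39 to 0.77, adjusted p = 4.91e-05, edgeR), or 1.49-fold. SOX9 lies on chromosome 17 at 70117161 to 70122557 on the plus strand (GRCh37) and shares no exon bases with another annotated gene.

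NFIA, the nuclear factor that SOX9 induces at the start of gliogenesis, had 69 and 76 reads with PELP1 siRNA and 85 and 101 with control siRNA. It stood at 3.50 and 4.0 CPM with PELP1 siRNA and at 4.38 and 4.51 CPM with control siRNA. The libraries of the groups did not overlap, yet the difference did not pass the threshold (log2 fold change -0.25, SE 0.18, 95% interval -0.63 to 0.13, adjusted p = 0.338, edgeR). The interval includes both a fall and a slight rise, so with 69 to 101 reads a library the direction of NFIA was not determined.

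GJA1, which encodes the gap junction protein connexin 43, had 5892 and 5177 reads with PELP1 siRNA and 4090 and 4902 with control siRNA. It stood at 299 and 273 CPM with PELP1 siRNA, against 211 and 219 CPM with control siRNA. Both PELP1 siRNA libraries lay above both controls. The log2 fold change was 0.41 (SE 0.066, 95% interval 0.28 to 0.55, adjusted p = 5.08e-05, edgeR). GJA1 has 1 annotated pseudogene, GJA1P1, and reads that align to both places were not counted; the part of this in its level was not tested. It lies on chromosome 6 at 121756741 to 121770873 on the plus strand (GRCh37).

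Of the glutamate transporters of astrocytes, SLC1A3 had many more reads than SLC1A2. SLC1A3, the transporter GLAST, had 1389 and 1252 reads with PELP1 siRNA and 912 and 1129 with control siRNA, which is 70.5 and 66.0 CPM with PELP1 siRNA, against 47.0 and 50.4 CPM with control siRNA. The groups did not overlap, and the log2 fold change was 0.49 (SE 0.082, 95% interval 0.32 to 0.66, adjusted p = 9.58e-05, edgeR). SLC1A3 lies on chromosome 5 at 36596690 to 36688436 on the plus strand (GRCh37) and shares 1.40% of its exon bases with 2 genes on the opposite strand. SLC1A2, the transporter GLT-1 that carries most glutamate uptake in the mature forebrain, had only 36 and 23 reads with PELP1 siRNA and 26 and 29 with control siRNA. At 1.83 and 1.21 CPM with PELP1 siRNA and 1.34 and 1.29 CPM with control siRNA its groups overlapped (log2 fold change 0.21, 95% interval -0.40 to 0.82, adjusted p = 0.633, edgeR). That interval includes the rise of SLC1A3, and the difference between the transporters was not tested.

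GLUL, which turns glutamate into glutamine, had close means in the groups. It stood at 59.3 and 54.9 CPM with PELP1 siRNA and 56.2 and 58.1 CPM with control siRNA, from 1169 and 1042 reads with PELP1 siRNA and 1090 and 1302 with control siRNA. The libraries interleaved, with a log2 fold change of -0.0013 (SE 0.082, 95% interval -0.17 to 0.17, adjusted p = 0.992, edgeR). A rise of the size fitted for SLC1A3 or SOX9 lies outside this interval. Of the reads on the 10 members, GLUL held 12.6% in each PELP1 siRNA library, against 16.3% and 16.2% in the control libraries. SOX9, GJA1 and SLC1A3 together held 86.0% and 85.8% in the PELP1 siRNA libraries, against 81.7% and 81.8% in the control libraries. These genes were grouped by their rise in the same reads, so the shares restate that rise and are no separate result. GLUL has 4 annotated pseudogenes, and reads shared with them were not counted.

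**Figure D2:**
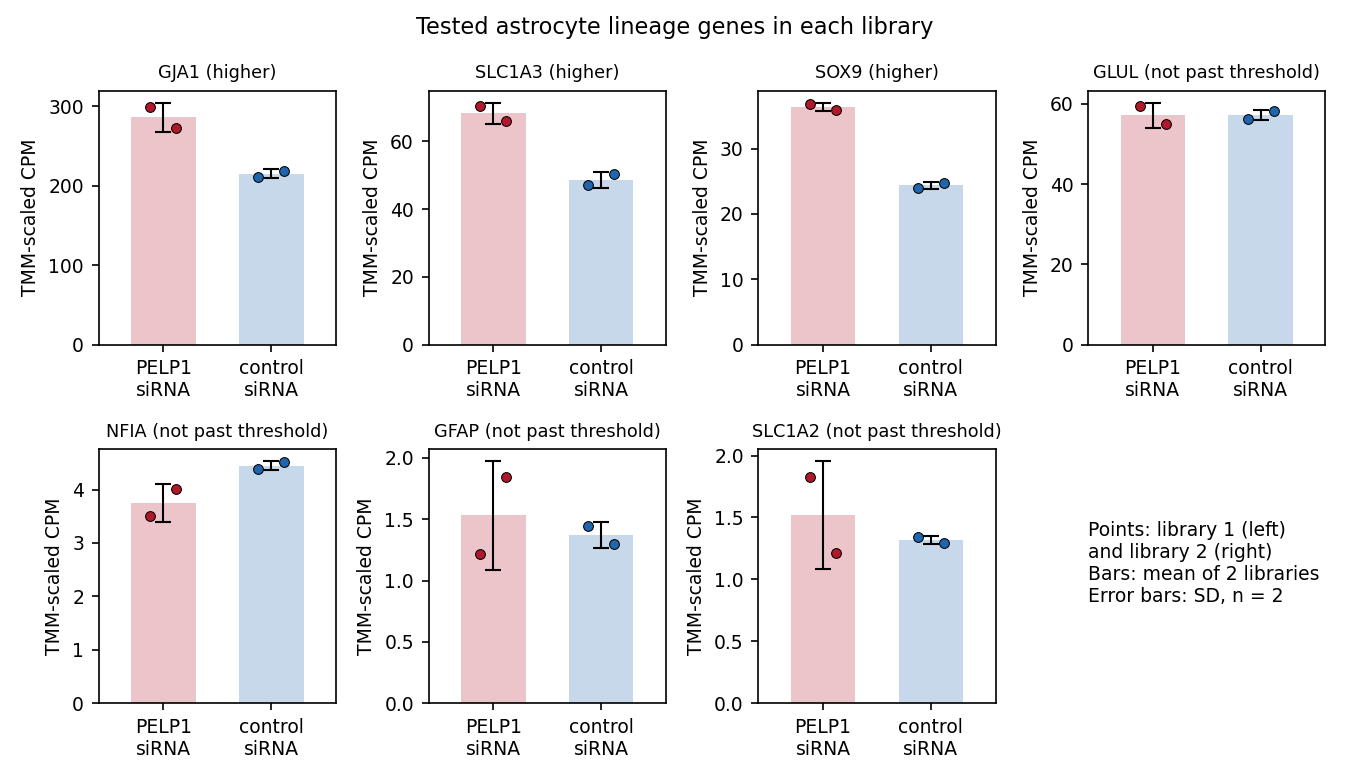
TMM-scaled CPM of the 7 members that passed the filter on low counts, with PELP1 siRNA on the left of each panel and control siRNA on the right; bars are means, error bars SD (n = 2) and points single libraries, on axes that start at 0. The PELP1 siRNA points of GJA1, SLC1A3 and SOX9 lie above both control points, those of GLUL, GFAP and SLC1A2 straddle them, and those of NFIA lie below them without passing the threshold.

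Transcripts of the proteins most used to mark astrocytes were scarce or without reads. GFAP, the intermediate filament of astrocytes, had 24 and 35 reads with PELP1 siRNA and 28 and 29 with control siRNA, or 1.22 and 1.84 CPM with PELP1 siRNA and 1.44 and 1.29 CPM with control siRNA. The groups overlapped (log2 fold change 0.16, 95% interval -0.45 to 0.77, adjusted p = 0.724, edgeR). GFAP shares 19.9% of its exon bases with CCDC103 and FAM187A on the opposite strand, and CCDC103 had 366 and 381 reads with PELP1 siRNA and 347 and 365 with control siRNA. Whether any of the few GFAP reads stem from that strand was not tested, as the strand setting of the counting is not given in the sources used here. S100B had 1 read in each PELP1 siRNA library and 0 in each control library, which is under the 3 counts that a count of 0 allows, so no fold is given. AQP4 and ALDH1L1 had 0 reads in all 4 libraries. A count of 0 allows up to 0.152 and 0.158 CPM in the PELP1 siRNA libraries and 0.155 and 0.134 CPM in the control libraries, by counting error only. With AQP4 and ALDH1L1 at 0 and S100B at 0 or 1 read, the name of the list describes the genes and not a mature astrocyte state of these cells.

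Among relatives of NFIA, SLC1A3 and ALDH1L1, 7 were tested, 6 were lower with PELP1 siRNA and 1, NFIX, missed the threshold, where 15.0% of all genes tested were lower. These 7 are a small chosen set, so their share does not speak for relatives of the members as a whole. Among other SOX genes 1 was called higher and 1 lower, and among the S100 family and its partners 1 higher and 2 lower. Of the relatives of GJA1, 5 connexins and pannexins were tested and 0 called by edgeR, DESeq2 or limma-voom, with 0 at an unadjusted p under 0.05 in edgeR. Among the NFI factors, NFIB stood at 24.5 and 23.5 CPM with PELP1 siRNA, against 39.8 and 33.2 CPM with control siRNA (log2 fold change -0.60, SE 0.10, adjusted p = 8.96e-05, edgeR), and NFIC had 85.6 and 75.6 CPM with PELP1 siRNA, against 103 and 101 CPM with control siRNA (-0.34, adjusted p = 0.00171). NFIX, at 83.0 CPM with PELP1 siRNA and 88.5 CPM with control siRNA, did not pass the threshold (-0.092, adjusted p = 0.383). Without control library 1 the adjusted p of NFIC was 0.0899, and without PELP1 siRNA library 1 that of NFIX was 0.0270. NFIB, NFIC and NFIX were thus all more abundant in CPM than NFIA, although CPM is not scaled for length. SOX8 and SOX10, the nearest relatives of SOX9, had at most 1 read in any library.

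SLC1A5, SLC1A4 and SLC1A1, of the same family as SLC1A3, were lower with PELP1 siRNA. SLC1A5, which carries glutamine and other neutral amino acids, averaged 156 ± 9.16 CPM with PELP1 siRNA and 205 ± 3.81 CPM with control siRNA (log2 fold change -0.39, SE 0.067, adjusted p = 1.12e-04, edgeR). SLC1A4, a transporter of alanine, serine and cysteine, fell by 0.40 on the log2 scale (adjusted p = 0.00289), and SLC1A1, the glutamate transporter EAAC1, by 0.39 (adjusted p = 0.00295). Both were lost without control library 2, with adjusted p of 0.213 for SLC1A4 and 0.185 for SLC1A1. SLC1A6 had no reads and SLC1A7 1 read in 1 control library. ALDH1L2, the mitochondrial relative of ALDH1L1, was well counted and fell to 8.17 and 7.69 CPM with PELP1 siRNA, against 17.0 and 16.6 CPM with control siRNA (log2 fold change -1.08, SE 0.12, adjusted p = 4.54e-07, edgeR).

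**Figure D3:**
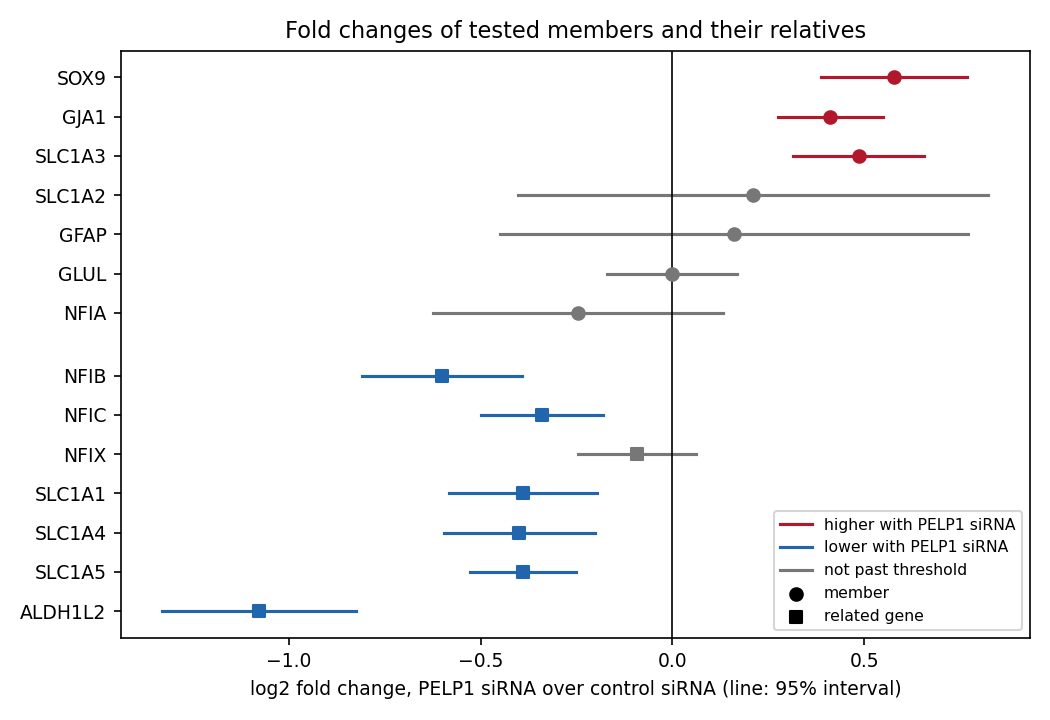
Log2 fold change, PELP1 siRNA over control siRNA, with its 95% interval for the 7 tested members (circles) and 7 relatives (squares); red is called higher, blue called lower and grey not past the threshold. SOX9, SLC1A3 and GJA1 lie between 0.41 and 0.58, while NFIB, NFIC, SLC1A1, SLC1A4, SLC1A5 and ALDH1L2 lie between -1.08 and -0.34.

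Genes recur between the lists that follow, which were chosen with earlier results of these data known. Over all genes tested, 12.9% were called higher, 15.0% lower and 27.9% in either direction. Signals and factors that drive astrocyte formation fell more often than they rose. Of 32 such genes 28 were tested, and of these 3 were higher and 11 lower, while 14 missed the threshold, with a median log2 fold change of -0.19, against 0.00088 over all genes tested. STAT3, the transcription factor of the gp130 pathway, rose to 185 and 178 CPM with PELP1 siRNA, against 127 and 126 CPM with control siRNA (log2 fold change 0.52, SE 0.066, adjusted p = 2.55e-06, edgeR). LIF, a gp130 cytokine that induces astrocytes, fell to 121 and 131 CPM with PELP1 siRNA, against 285 and 278 CPM with control siRNA (-1.16, SE 0.067, adjusted p = 8.75e-12). The BMP receptor BMPR2 fell by 0.78 on the log2 scale (adjusted p = 4.79e-07). ID3, a BMP target, rose by 0.29 on the log2 scale (adjusted p = 0.0205), but that p was 0.197 without control library 1, 0.274 without control library 2 and 0.0616 by DESeq2. LIF and STAT3, of the same pathway, thus moved in opposite directions, and HES5 and CNTFR had no reads.

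Other genes enriched in astrocytes showed no common direction. Of 43, 27 were tested, and of these 4 were higher and 5 lower, while 18 missed the threshold (median log2 fold change 0.049). RANBP3L rose to 23.7 and 16.6 CPM with PELP1 siRNA, against 4.85 and 4.87 CPM with control siRNA (2.05, SE 0.16, adjusted p = 1.03e-09, edgeR), and was listed with its rise already known. CPE, a carboxypeptidase that trims neuropeptides, rose by 0.74 on the log2 scale (adjusted p = 6.07e-06). DIO2, the deiodinase with which glia activate thyroid hormone, fell to 11.7 and 9.75 CPM with PELP1 siRNA, against 24.8 and 23.1 CPM with control siRNA (-1.16, adjusted p = 6.87e-08), and THBS1, a secreted factor that promotes synapses, fell by 0.59 on the log2 scale (adjusted p = 2.65e-04). HEPACAM, GJB6, SLC7A10, SLC6A11 and NTRK2 had no reads in any library.

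Genes of reactive astrocytes fell more often than they rose. Of 34, 23 were tested. Of these 2 were higher and 12 lower, while 9 missed the threshold, with a median log2 fold change of -0.28. Calls made up 60.9% of the tested genes of the list, against 27.9% of all genes tested, of which 15.0% were lower. This list too was chosen with earlier results of these data known. PTGS2, the inducible cyclooxygenase, fell to 42.2 and 34.2 CPM with PELP1 siRNA, against 81.3 and 83.0 CPM with control siRNA (-1.10, SE 0.091, adjusted p = 3.43e-09, edgeR). SPHK1, a sphingosine kinase, fell by 0.64 on the log2 scale (adjusted p = 3.71e-07, edgeR). The interferon-induced GTPase GBP2 rose by 0.82 (adjusted p = 3.73e-07, edgeR) and S100A10 of the S100 family by 0.46 (adjusted p = 8.36e-06, edgeR). Without control library 1 or 2, the called genes of all lists other than the members were fewer, with 13 higher and 31 lower without control library 1 against 22 higher and 47 lower with all libraries.

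Glutamate and glutamine genes beyond the members also moved both ways. Of 22, 19 were tested, and of these 3 were higher and 6 lower, while 10 missed the threshold (median log2 fold change -0.12). The cystine-glutamate exchanger SLC7A11 fell to 39.5 and 32.1 CPM with PELP1 siRNA, against 67.0 and 64.1 CPM with control siRNA (-0.87, SE 0.094, adjusted p = 2.37e-07, edgeR), and the glutamine carrier SLC38A1 fell by 0.44 on the log2 scale (adjusted p = 1.99e-05). Pyruvate carboxylase (PC), which refills the citric acid cycle in astrocytes, rose by 0.58 (adjusted p = 1.13e-05). The mitochondrial aspartate aminotransferase GOT2 rose by 0.32 (adjusted p = 5.97e-04), a call lost without control library 1 (adjusted p = 0.102).

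The structural families of the members differed in how many of their genes were called, against 27.9% over all genes tested. Of 22 other connexins and pannexins, the 5 tested held no call with all libraries, and 1 was called lower without PELP1 siRNA library 1. Their median log2 fold change was -0.11. GJC1, the connexin 45 gene, stood at 84.2 CPM with PELP1 siRNA and 83.0 CPM with control siRNA. Of 21 aquaporins and endfoot partners, 10 were tested (median log2 fold change -0.028) and 3 were lower, led by the basement membrane protein AGRN (log2 fold change -0.50, adjusted p = 9.91e-06, edgeR). AQP11 had an adjusted p of 0.0202 and lost its call when either control library or PELP1 siRNA library 2 was left out (adjusted p 0.0555 to 0.215). The aquaporin with most reads was AQP9, a channel for water and small solutes, at 170 and 158 CPM with PELP1 siRNA and 189 and 189 CPM with control siRNA. AQP9 is named after its values were seen, and its log2 fold change was -0.20 (adjusted p = 0.0228). The call was lost without control library 1 (-0.21, adjusted p = 0.312), without control library 2 (-0.20, adjusted p = 0.297) and with total-count scaling (-0.16, adjusted p = 0.0767).

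Of 14 intermediate filament genes 9 were tested, 2 were higher and 4 lower (median log2 fold change -0.28). The stem cell filament NES fell to 31.1 and 36.1 CPM with PELP1 siRNA, against 50.1 and 45.4 CPM with control siRNA (log2 fold change -0.51, SE 0.095, adjusted p = 2.90e-04, edgeR), and the lamin LMNB2 fell by 0.32 on the log2 scale (adjusted p = 3.53e-04). The lens filament BFSP1 rose by 1.27 (adjusted p = 4.20e-08), and the lamin LMNB1 by 0.30 (adjusted p = 0.00568, but 0.143 and 0.209 without control library 1 and 2). Of 21 genes of the S100 family and its partners 14 were tested, 1 was higher (S100A10) and 2 lower (median log2 fold change 0.0043). Of those 2, AHNAK lost its call without control library 1 (adjusted p = 0.428), and S100A2 lost it without either control library, without PELP1 siRNA library 1 and by DESeq2 (0.083 to 0.136). Of 18 other SOX genes 5 were tested (median log2 fold change 0.37), with SOX4 (0.70, adjusted p = 0.0317) and SOX13 (-0.34, adjusted p = 0.0446) called. Both calls were lost by DESeq2 (adjusted p = 0.211 for SOX4 and 0.189 for SOX13). They were also lost without control library 1 (log2 fold change 0.60 for SOX4 and -0.26 for SOX13). The same held without control library 2 (0.83 and -0.43) and without PELP1 siRNA library 1 (0.54 and -0.28). SOX13 further missed the threshold in edgeR with upper quartile scaling, total-count scaling or a block on the replicate number, and by limma-voom (adjusted p 0.0515 to 0.0844).

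**Figure D4:**
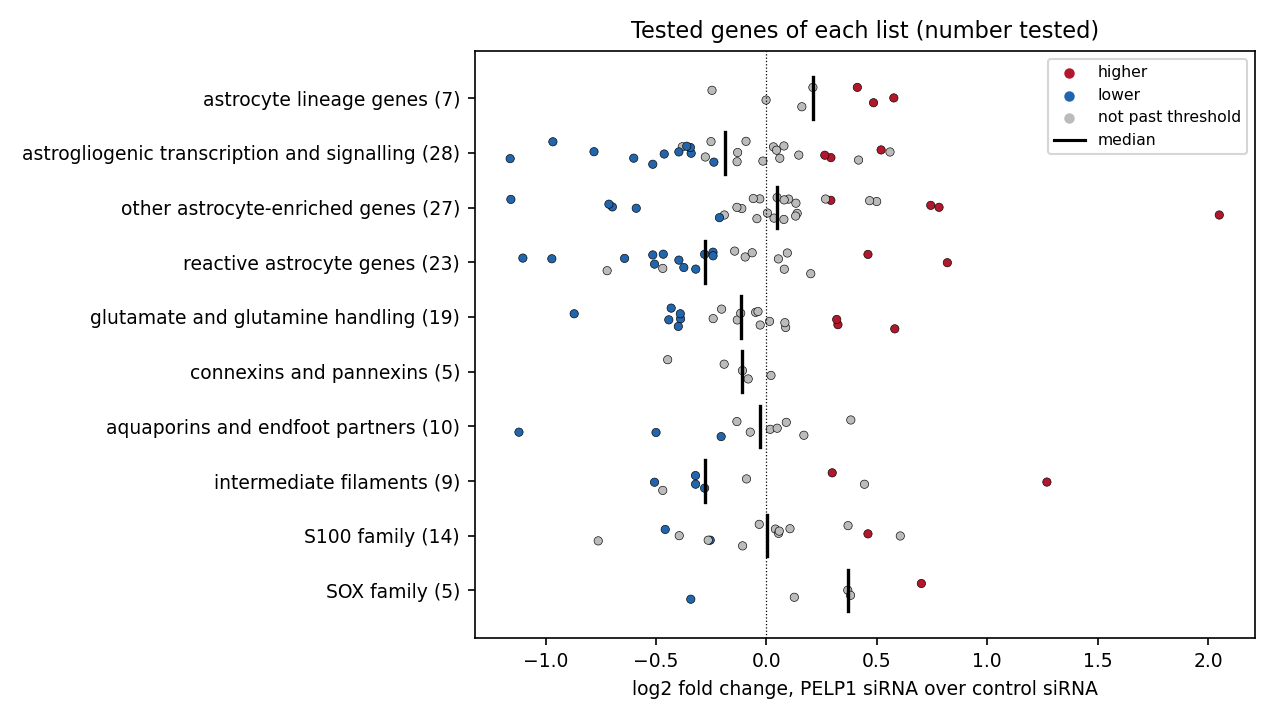
Log2 fold change, PELP1 siRNA over control siRNA, of every tested gene in the members' list and 9 related lists; each point is a gene, coloured by its call, and black ticks are list medians. The 7 tested members have a median of 0.21, the reactive astrocyte and intermediate filament genes of -0.28, and RANBP3L lies apart at 2.05.

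Markers of other cell types were partly without reads and moved in both directions. Microglial markers AIF1, P2RY12, C1QA, C1QB, C1QC and TREM2 had no reads, and 3 of 13 were tested, with TMEM119 higher (log2 fold change 1.13, adjusted p = 6.81e-05, edgeR). CD68, a lysosomal protein of macrophages, had 385 and 423 CPM with PELP1 siRNA and 420 and 427 CPM with control siRNA, and the receptor CSF1R had 17.1 and 18.8 CPM with PELP1 siRNA and 20.4 and 21.0 CPM with control siRNA. Neither passed the threshold (adjusted p = 0.449 for CD68 and 0.146 for CSF1R, edgeR). The sum of that list, 409 and 447 CPM with PELP1 siRNA and 443 and 451 CPM with control siRNA, was mostly CD68. Neuronal markers ELAVL3, ELAVL4, GAD2, SLC17A6, NEFL and GRIN1 had no reads; of 8 of 18 tested, MAP2 was higher (0.65, adjusted p = 2.10e-04) and SNAP25 lower (-0.63, adjusted p = 9.03e-06), and sums were 212 and 224 CPM with PELP1 siRNA and 230 and 237 CPM with control siRNA. Of the oligodendrocyte lineage, OLIG1, MOG and NKX2-2 had no reads and 6 of 15 were tested. The proteoglycan CSPG4 was lower (-0.79, adjusted p = 2.13e-08, edgeR), and so was C11orf9 (-2.05, adjusted p = 0.00324). The call of C11orf9 was lost without PELP1 siRNA library 1 (-1.39), and DESeq2 gave it no adjusted p. PDGFRA was higher (0.69, adjusted p = 0.0218, edgeR), but was not called by DESeq2 (adjusted p = 0.159). Its call was also lost without control library 2 (0.41) and without PELP1 siRNA library 1 (0.60). Sums of that list were 191 and 203 CPM with PELP1 siRNA and 232 CPM in each control library, mostly CNP and CSPG4. CSPG4 had 66.1 and 67.5 CPM with PELP1 siRNA, against 117 and 114 CPM with control siRNA. CNP had 118 and 128 CPM with PELP1 siRNA and 110 and 111 CPM with control siRNA. The difference in CNP did not pass the threshold (log2 fold change 0.16, adjusted p = 0.107, edgeR).

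Endothelial CLDN5 and FLT1 had no reads, 5 of 10 were tested and KDR was lower (log2 fold change -0.50, adjusted p = 0.00380, and 0.103 without control library 1), with sums of 87.1 and 94.2 CPM with PELP1 siRNA and 98.7 and 98.4 CPM with control siRNA. Of the neural stem cell list SOX1, HES5 and NR2E1 had no reads, 4 of 11 were tested and NES was lower, with sums of 51.6 and 53.8 CPM with PELP1 siRNA and 68.7 and 64.1 CPM with control siRNA. Fibroblast and mesenchymal genes were abundant in both groups, at 6383 and 6534 CPM with PELP1 siRNA and 6765 and 6552 CPM with control siRNA. Of 14 tested of 16, SPARC (0.54, adjusted p = 2.48e-07) and COL1A2 (0.44, adjusted p = 5.55e-06) were among 3 higher, and FN1 (-0.48, adjusted p = 1.26e-06) and FAP (-0.32, adjusted p = 0.00701, and 0.165 and 0.138 without control library 1 and 2) were the 2 lower. Epithelial markers summed to 3.50 and 4.06 CPM with PELP1 siRNA and 3.92 and 4.69 CPM with control siRNA; of 4 of 10 tested, EPCAM (1.02, adjusted p = 0.0188) was higher and CLDN4 (-1.36, adjusted p = 0.0432) lower, and both calls were lost without control library 1 (adjusted p = 0.211 for EPCAM and 0.0635 for CLDN4). Median log2 fold changes of the tested markers were 0.022 for neurons, -0.24 for the oligodendrocyte lineage, -0.069 for microglia, -0.081 for endothelial cells, -0.061 for neural stem cells, 0.058 for fibroblasts and -0.37 for epithelial cells. The part of these genes in the rise of SOX9, GJA1 and SLC1A3 was not tested.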

How the data were processed

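Total RNA of U87 MG cells was sequenced by the authors as 50 bp single-end TruSeq libraries, per the labels' protocols. Per the submitters' processing notes, CASAVA 1.8.2, TopHat2 2.0.8b and HTSeq were used with human build hg19 (GRCh37). The values the authors deposited are raw read counts per gene symbol, without normalization. The HTSeq version, strand setting and annotation release were not given in the sources used here.

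The 5 summary lines of the counter (36.0 to 37.6% of all counts) were left out. Of 23228 symbols, 13234 passed filterByExpr (minimum count 10, minimum total 15). The main test was the quasi-likelihood test of edgeR 4.0.16 in R 4.3.3, with TMM factors and robust dispersions, on 2 against 2 libraries. A call needed a p under 0.05 after Benjamini-Hochberg adjustment across the 13234 genes; the biological coefficient of variation was 5.23%. Floors (3 counts) cover counting error only. Intervals of 95% come from the same fit. RPKM used the union of GENCODE v44lift37 exons, and 90.6% of symbols matched 1 gene. Alternatives were other scalings and filters, DESeq2 1.42.0, limma 3.58.1 (voom), a fit that was not robust, a replicate block and leaving out each library. The pipeline was tested on simulated data. Members and lists were chosen with earlier results of these data known. Genes other than members were named by a fixed rule (up to 2 called genes with the smallest adjusted p per list and direction, defining markers at 0, and close paralogs). Other genes named at 0 or 1 count, AQP9, GJC1, CD68, CSF1R, CNP and CCDC103 were named after their values were seen. List genes were found under older names where needed.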

Additional observations from a re-analysis of the deposited data

How the results depend on the processing

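SOX9, GJA1 and SLC1A3 were called higher under each of 13 alternatives, and no member was called lower under any. Log2 fold changes ranged from 0.56 to 0.63 for SOX9 (adjusted p at most 0.00631), from 0.35 to 0.48 for GJA1 (at most 0.0171) and from 0.44 to 0.54 for SLC1A3 (at most 0.0273), with the largest p without control library 1. Leaving out 1 library gave 0.56 to 0.60 for SOX9, 0.35 to 0.48 for GJA1 and 0.44 to 0.54 for SLC1A3, with the lone library assumed to vary like the other group. GFAP (-0.16 to 0.44), SLC1A2 (-0.12 to 0.48), GLUL (-0.056 to 0.058) and NFIA (-0.34 to -0.15) were not called under any alternative that gave an adjusted p. GFAP, SLC1A2 and NFIA were not tested with a filter of 5 CPM in 2 libraries, and DESeq2 gave no adjusted p for GFAP and SLC1A2. With the replicate number as a replicate block, 1613 genes were higher and 1968 lower and the same 3 members were called. The numbers share no stated culture or day, and differences between duplicates correlated at -0.031 between groups, so they were not taken as pairs.

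Over the whole table, leaving out 1 library gave 523 to 2724 genes higher and 943 to 2804 lower, against 1712 and 1980 with all 4, and DESeq2 gave 1133 higher. Total-count scaling gave 2272 higher and 1597 lower, so 41.3% of calls were lower instead of 53.6%. The median log2 fold change over all genes tested was 0.049 with total-count scaling, against 0.00088 with TMM factors. The cause of the difference was not tested. In the other lists, leaving out 1 library gave 13 to 33 genes higher and 31 to 58 lower, against 22 and 47, and 32 of 69 called list genes missed the threshold under at least 1 alternative. Depth limits S100B, AQP4 and ALDH1L1, which have no test, and leaves wide intervals for GFAP, SLC1A2 and NFIA.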
